A study of Mus musculus with 12 samples.

Results

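The 10 genes described here encode the mouse major histocompatibility complex (MHC) molecules, called H2 in this species, and the proteins they need to reach the cell surface or to be transcribed. They were taken as a fixed list by gene symbol from 35896 genes, and all 10 were among the 12052 genes with enough counts to be tested. The list was chosen with earlier results of these data known. The list holds H2-Aa, H2-Ab1 and H2-Eb1 (class II chains), Cd74 (the class II invariant chain), H2-DMa and H2-DMb1 (the peptide exchange factor H2-DM), Ciita (the class II transactivator), H2-D1 and H2-K1 (classical class I heavy chains) and B2m (beta-2-microglobulin, the light chain of class I molecules).

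The material was whole uterus from wild-type Swiss Webster females aged 8 to 12 weeks, with 3 samples each in proestrus, estrus, metestrus and diestrus, the successive stages of the mouse ovarian cycle. Swiss Webster is an outbred stock, so the animals can carry different H2 alleles, which were not determined here. No group carried a transgene, a deletion or a treatment, and the labels do not say how stages were assigned or how samples were batched. Libraries were made by 3′ TagSeq, which sequences a fragment near the 3′ end of each polyadenylated RNA, and held 1652841 to 2200563 estimated counts. Samples are named below by stage and by the number in their labels. Values are CPM, counts scaled to a common library total after TMM normalization. At these depths 3 counts correspond to between 1.36 and 1.82 CPM, and intervals reflect the spread between these samples only.

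Class II molecules are heterodimers that show peptides from endosomes to CD4+ T cells and are made mainly by professional antigen-presenting cells such as macrophages, dendritic cells and B cells. In those cells Ciita, together with the RFX and NF-Y factors that sit on the X and Y boxes of the promoters, switches on the class II chains, Cd74 and H2-DM. Class I molecules are made by nearly all nucleated cells and show peptides from the cytosol to CD8+ T cells, and interferons raise the transcription of both classes. The uterus holds resident macrophages and dendritic cells whose abundance is known to vary over the cycle.

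Promoter sequences of genes of both classes were searched for short runs of letters. The windows below lie just before the transcription start in the RefSeq annotation (GRCm38.p6, chromosome 17 for the H2 genes and chromosome 2 for B2m), read 5′ to 3′ on the gene's strand. Capitals mark letters that were searched on both strands: the core of the Y box (GATTGG, or CCAATC when read on the other strand), letters of the X box (CTNNTGANG), letters of a kappaB site (GGGATTCCC) and letters of an interferon-response sequence (GAANNGAAA). The X box letters were chosen after these promoters had been read.

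H2-Eb1, chr17:34305757-34305866, plus strand: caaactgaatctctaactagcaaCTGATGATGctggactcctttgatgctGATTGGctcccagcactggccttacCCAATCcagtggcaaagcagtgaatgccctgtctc
H2-DMb1, chr17:34153081-34153190, plus strand: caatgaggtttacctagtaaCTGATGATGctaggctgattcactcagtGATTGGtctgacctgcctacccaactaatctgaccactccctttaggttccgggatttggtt
H2-Aa, chr17:34287824-34287933, minus strand: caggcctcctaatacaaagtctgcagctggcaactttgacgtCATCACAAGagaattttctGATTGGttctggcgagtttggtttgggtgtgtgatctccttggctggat
B2m, chr2:122147527-122147686, plus strand: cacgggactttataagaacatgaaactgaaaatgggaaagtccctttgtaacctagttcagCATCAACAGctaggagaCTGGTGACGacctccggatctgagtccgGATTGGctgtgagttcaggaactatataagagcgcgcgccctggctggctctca
H2-D1, chr17:35262914-35263093, plus strand: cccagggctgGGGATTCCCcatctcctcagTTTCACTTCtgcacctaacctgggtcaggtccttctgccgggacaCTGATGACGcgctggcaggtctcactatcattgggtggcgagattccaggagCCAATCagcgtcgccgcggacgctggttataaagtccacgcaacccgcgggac
H2-K1, chr17:34000334-34000473, minus strand: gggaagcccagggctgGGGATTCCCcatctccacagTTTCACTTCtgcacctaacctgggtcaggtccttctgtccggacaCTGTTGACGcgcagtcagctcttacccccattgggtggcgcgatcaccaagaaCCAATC

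The table of promoters held 7 of the 10 members. In H2-Eb1, H2-DMb1 and B2m the X letters began 27 or 28 bases before the Y core, 2 of them class II pathway genes and the other the class I light chain. In H2-D1 and H2-K1 the distance to the matched Y core was 52 and 53 bases, and the kappaB and interferon-response letters lay further upstream. Both windows also hold cattgg between the X letters and that core. It differs from the searched GATTGG in its opening letter and was not marked. These distances therefore do not show that the 2 classes differ in the spacing of X and Y boxes. In H2-Aa the X letters were found on the other strand only, 19 bases before the Y core, and B2m had an additional match of this kind. Just before that match, the H2-Aa window holds ctttgacg on the gene's own strand. It lacks a letter of the searched word and was not marked. Which of these is the X box of H2-Aa was not tested. H2-DMa had no X letters, and a Y core only before 1 of its listed starts, 199 bases upstream. Of 32817 promoter windows of 250 bases, 14.5% held the Y core, 12.0% the X letters and 1.72% both, while 0.302% held the kappaB letters and 6.31% the interferon-response letters. Over their 250-base windows H2-D1 and H2-K1 aligned without gaps over 177 bases, of which 161 were identical (91.0%). RefSeq lists more than 1 start for H2-K1, and the window shown ends at the one furthest downstream. Before another listed start of H2-K1 the X letters lay 45 bases upstream and no Y core was found. The distance of 53 bases therefore holds only for the start shown. A match is a run of letters and no measurement of binding.

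Across the 4 stages, 6 of the 10 members passed the edgeR quasi-likelihood F test (H2-Aa, H2-Ab1, H2-Eb1, Cd74, H2-K1 and B2m), beside 23.2% of all genes tested. H2-DMa, H2-DMb1, Ciita and H2-D1 did not pass. For 5 members (H2-Aa, H2-Ab1, H2-Eb1, Cd74 and B2m) every one of the 3 proestrus samples lay below every one of the 9 other samples, an arrangement found in 3.83% of all genes tested. In whole tissue, fewer cells of a type and less RNA per cell cannot be told apart, and this holds for every difference below. Without Proestrus 1 or without Proestrus 3 the F test called only 3 members, H2-Aa, H2-Eb1 and B2m.

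**Figure D1:**
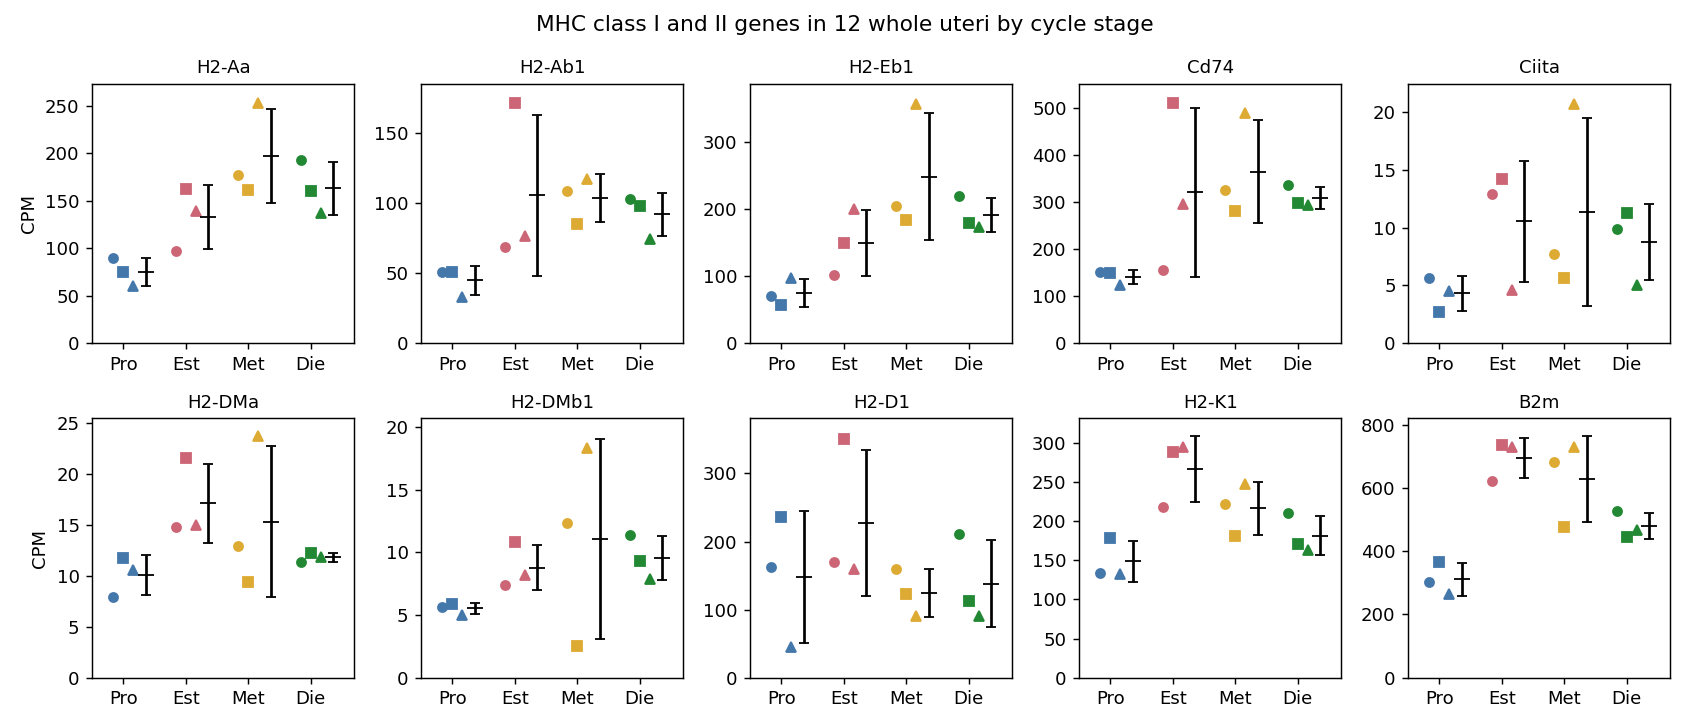
TMM-scaled CPM (vertical axis, from 0, a separate scale in each panel) of the 10 members in every sample, by stage (Pro, proestrus; Est, estrus; Met, metestrus; Die, diestrus). Circle, square and triangle are the lowest, middle and highest replicate number of a stage, and the dash and bar are the mean and SD of 3 samples. In H2-Aa, H2-Ab1, H2-Eb1, Cd74 and B2m the 3 proestrus points lie below all others, whereas the H2-D1 points of the 4 stages overlap.

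H2-Aa, H2-Ab1, H2-Eb1 and Cd74 were lowest in proestrus and higher in estrus and metestrus, each past the test. H2-Aa (ENSMUSG00000036594, GRCm38 chromosome 17, 34282744 to 34287823, minus strand) encodes the alpha chain of the I-A molecule. It was at 89.5, 74.9 and 60.5 CPM in proestrus, at 96.4, 162 and 140 CPM in estrus, at 177, 161 and 253 CPM in metestrus, and at 193, 160 and 137 CPM in diestrus. No proestrus sample reached the lowest of the other stages, while estrus, metestrus and diestrus overlapped. The mean rose from 75.0 ± 14.5 CPM (SD, n = 3) in proestrus to 197 ± 49.4 CPM (SD, n = 3) in metestrus, or 1.40 ± 0.23 in log2 units (SE, edgeR adjusted p = 0.00871). Ordered from low to high, its stage means ran proestrus, estrus, diestrus and metestrus. The step from proestrus to estrus passed the test (0.83 ± 0.23, adjusted p = 0.0252), but those from estrus to diestrus (0.29, 95% interval -0.18 to 0.77) and between diestrus and metestrus did not.

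H2-Ab1 (ENSMUSG00000073421, chromosome 17, 34257689 to 34269419, plus strand) encodes the beta chain that pairs with H2-Aa. Its proestrus samples held 50.4, 50.8 and 32.7 CPM, its estrus samples 68.2, 171 and 76.4 CPM, its metestrus samples 109, 84.6 and 117 CPM, and its diestrus samples 103, 97.7 and 74.2 CPM. Estrus 4 stood well above the other estrus samples and was the highest of all 12. Against proestrus, H2-Ab1 was higher in estrus by 1.24 ± 0.31 (log2, SE, adjusted p = 0.0158) and in metestrus by 1.22 ± 0.31 (adjusted p = 0.0432), and its difference between proestrus and diestrus, -1.04 ± 0.31, missed the threshold (adjusted p = 0.0537). Means from low to high ran proestrus, diestrus, metestrus and estrus, and no neighbours in that order differed past the threshold. Without Estrus 4 the log2 fold change of estrus over proestrus was 0.67 (adjusted p = 0.0770).

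H2-Eb1 (ENSMUSG00000060586, chromosome 17, 34305867 to 34316674, plus strand) encodes the beta chain of the second class II molecule, I-E. Proestrus gave 70.2, 56.7 and 97.2 CPM, estrus 101, 149 and 199 CPM, metestrus 205, 183 and 357 CPM, and diestrus 219, 179 and 173 CPM. Metestrus 7 was far above its stage, and the highest proestrus sample lay only just below the lowest estrus sample. The log2 fold change over proestrus was 1.00 ± 0.29 in estrus (adjusted p = 0.0294) and 1.73 ± 0.29 in metestrus (adjusted p = 0.00958). Proestrus, at 74.7 ± 20.6 CPM (SD, n = 3), was below diestrus, at 190 ± 25.1 CPM, by -1.35 ± 0.29 in log2 units (adjusted p = 0.0103). The 3.32-fold difference between metestrus and proestrus was the largest of any member in any comparison. From low to high the stage means ran proestrus, estrus, diestrus and metestrus, and only the first step passed the test.

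Cd74 (ENSMUSG00000024610, chromosome 18, 60803848 to 60812652, plus strand) encodes the invariant chain, which fills the groove of new class II molecules and escorts them to endosomes. It was at 151, 148 and 123 CPM in proestrus, 155, 511 and 295 CPM in estrus, 326, 280 and 488 CPM in metestrus, and 336, 297 and 294 CPM in diestrus. Proestrus and diestrus were tight, with means of 141 ± 15.4 and 309 ± 23.3 CPM (SD, n = 3 each), whereas the estrus samples spread from the proestrus level up to the highest value of the series. Cd74 rose over proestrus by 1.19 ± 0.32 in estrus (log2, adjusted p = 0.0239) and by 1.37 ± 0.33 in metestrus (adjusted p = 0.0329), and its proestrus level was below diestrus by -1.14 ± 0.32 (adjusted p = 0.0442). Diestrus, estrus and metestrus, the next stages in order, did not differ from one another past the threshold. Without Estrus 4, the log2 fold change of estrus over proestrus was 0.65 (adjusted p = 0.146).

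The peptide exchange factor and the transactivator gave fewer counts and no call. H2-DMa (chromosome 17, 34119541 to 34139101, plus strand) was at 7.93 to 11.8 CPM in proestrus, 14.7 to 21.6 CPM in estrus, 9.40 to 23.7 CPM in metestrus and 11.4 to 12.3 CPM in diestrus. H2-DMb1 (chromosome 17, 34153072 to 34160230, plus strand) ran from 5.04 to 5.89 CPM in proestrus, 7.37 to 10.8 CPM in estrus, 2.51 to 18.3 CPM in metestrus and 7.87 to 11.4 CPM in diestrus, and Metestrus 6 held only 4 counts. Ciita (chromosome 16, 10480059 to 10528418, plus strand) was at 5.66, 2.68 and 4.53 CPM in proestrus, 12.9, 14.2 and 4.55 CPM in estrus, 7.73, 5.64 and 20.7 CPM in metestrus, and 9.90, 11.3 and 5.06 CPM in diestrus. Every later stage held at least 1 Ciita sample within the proestrus range. The differences between estrus and proestrus were 0.75 (95% interval 0.05 to 1.45) for H2-DMa, 0.66 (-0.42 to 1.75) for H2-DMb1 and 1.26 (0.02 to 2.50) for Ciita on the log2 scale, so the intervals of all 3 include changes as large as those of the class II chains. Their F tests gave adjusted p-values of 0.256, 0.417 and 0.255. Without Metestrus 6, H2-DMb1 passed the F test (adjusted p = 0.0309).

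Class I genes differed from each other. B2m (ENSMUSG00000060802, chromosome 2, 122147686 to 122153083, plus strand) had the smallest F test p of the members (adjusted p = 0.00184). It was at 301, 367 and 264 CPM in proestrus, 621, 735 and 729 CPM in estrus, 681, 476 and 730 CPM in metestrus, and 527, 446 and 466 CPM in diestrus. Proestrus lay below all other samples, estrus lay above all diestrus samples, and metestrus spanned both. B2m rose from 311 ± 52.4 to 695 ± 64.2 CPM (SD, n = 3 each) between proestrus and estrus, or 1.16 ± 0.18 in log2 units (adjusted p = 0.00115), and it was higher by 1.02 ± 0.18 in metestrus than in proestrus (adjusted p = 0.0102). Diestrus was below estrus by -0.54 ± 0.17 (adjusted p = 0.0407) and still above proestrus, the difference of proestrus from diestrus being -0.63 ± 0.18 (adjusted p = 0.0411). Means from low to high ran proestrus, diestrus, metestrus and estrus, and the last 2 steps did not pass the test.

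H2-K1 (ENSMUSG00000061232, chromosome 17, 33996017 to 34000347, minus strand) followed the same order of stage means. It was at 134, 178 and 133 CPM in proestrus, 219, 288 and 294 CPM in estrus, 221, 180 and 247 CPM in metestrus, and 210, 171 and 164 CPM in diestrus. All estrus samples were above all proestrus and all diestrus samples, and diestrus overlapped proestrus. Estrus was higher than proestrus by 0.85 ± 0.18 (log2, adjusted p = 0.00596), and diestrus was lower than estrus by -0.56 ± 0.17 (adjusted p = 0.0342). The difference between metestrus and proestrus was 0.54 ± 0.18 (adjusted p = 0.0951).

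H2-D1 (ENSMUSG00000073411, chromosome 17, 35262730 to 35267499, plus strand), the other classical heavy chain, varied widely between samples of one stage. Its proestrus samples held 163, 236 and 44.8 CPM, its estrus samples 169, 351 and 160 CPM, its metestrus samples 160, 122 and 90.5 CPM, and its diestrus samples 210, 112 and 90.5 CPM. The lowest and the second highest value of the 12 were both in proestrus. Stage means lay between 124 ± 34.9 CPM in metestrus and 227 ± 108 CPM in estrus (SD, n = 3 each), the F test did not pass (adjusted p = 0.452), and the difference between estrus and proestrus was 0.62 (95% interval -0.42 to 1.65).

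Part of the class I sequence cannot be assigned to a single gene. Of the 31-base words in the transcripts of H2-D1, 26.9% also occur in another gene, and of those of H2-K1, 22.8%; in the last 500 bases of each transcript, where 3′ tags fall, the shares are 34.6% and 26.4%. The 2 genes have 358 such words in common. H2-DMb1 shares 31.4% of its words, with H2-DMb2, whereas B2m shares none and H2-Aa, H2-Ab1, H2-Eb1 and Cd74 share 0.267% to 1.41%. H2-DMa shares 9.23%, with Brd2, and Ciita 2.72%, or 5.85% in the last 500 bases. How the deposited counts split such reads between genes was not tested. The values of H2-D1, H2-K1 and H2-DMb1, and to a smaller degree those of H2-DMa and Ciita, are uncertain in that respect. H2-DMa and Brd2, Ciita and Dexi, B2m and Patl2, and H2-Eb1 and Gm20513 overlap on opposite strands, and whether counting used strand is not given in the sources used here. Words were compared on both strands, and B2m transcripts share none with Patl2 despite the overlap of the genes.

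H2-D1, H2-K1 and every gene that shares at least 20 words with each of them were summed into a single class I feature of 26 genes. The sum reduces that ambiguity without removing it, since H2-D1 also shares words with genes outside the pool. Such shares reached 4.71% of the words in the last 500 bases of H2-D1 (with Kcnk4). The pooled feature was at 434, 579 and 337 CPM in proestrus, 612, 927 and 707 CPM in estrus, 547, 449 and 536 CPM in metestrus, and 541, 413 and 360 CPM in diestrus. Estrus lay above all other samples. The pool rose between proestrus and estrus by 0.74 ± 0.22 (log2, adjusted p = 0.0324) and was lower in diestrus than in estrus by -0.77 ± 0.22 (adjusted p = 0.0200), and it passed the F test (adjusted p = 0.0409). Its means were 450, 749 and 438 CPM in proestrus, estrus and diestrus. Part of both changes lay in H2-T23, a nonclassical gene of the pool, with means of 26.2, 120 and 31.4 CPM in these stages.

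**Figure D2:**
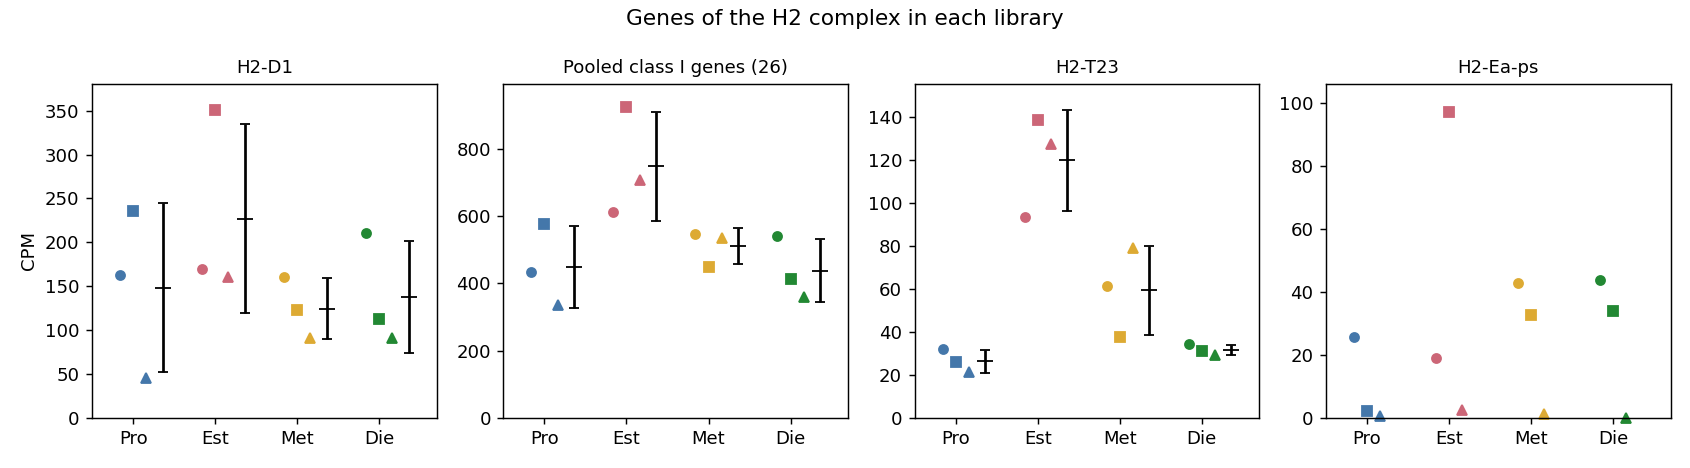
TMM-scaled CPM (vertical axis, from 0) by stage for H2-D1, for the pooled class I feature of 26 genes, for H2-T23, which is in that pool, and for H2-Ea-ps; symbols as in the plot of the members, with no mean drawn for H2-Ea-ps. H2-D1 overlaps across stages, the pooled feature and H2-T23 are highest in estrus, and H2-Ea-ps is at or below 2.27 CPM in 5 samples and at 19.0 CPM or more in 7.

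Comparison by comparison, estrus against proestrus held the largest number of calls. All 6 members that passed there were higher in estrus (H2-Aa, H2-Ab1, H2-Eb1, Cd74, H2-K1 and B2m), beside 17.1% of all genes called in either direction and 9.67% called higher. All 10 members had a positive log2 fold change, with a median of 0.93 beside 0.02 over all genes. The class II calls depended on single samples. Without Estrus 4, H2-K1 and B2m were the 2 members still called, and the adjusted p-values of H2-Aa, H2-Ab1, H2-Eb1 and Cd74 went to 0.125, 0.0770, 0.0811 and 0.146; without Proestrus 2, Proestrus 3 or Estrus 5, 3 members were called each time, always including H2-K1 and B2m.

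Between metestrus and proestrus, 5 members were higher in metestrus (H2-Aa, H2-Ab1, H2-Eb1, Cd74 and B2m), beside 2.49% of all genes called higher and 4.31% in either direction, and the median over the members was 1.12. H2-Aa was called under each of its 19 alternative settings, whereas H2-Ab1 lost its call under 11 of 19, library totals among them. The count fell to 2 without Proestrus 2 or Proestrus 3 and in a fit to these 2 stages alone, and to 3 without Proestrus 1, Estrus 5, Metestrus 7 or Diestrus 3. Between diestrus and proestrus, 4 members were lower in proestrus (H2-Aa, H2-Eb1, Cd74 and B2m), beside 3.91% of all genes called lower there and 8.53% in either direction. H2-Aa was again called under each of 19 settings, and the count was 2 without any one of the 3 proestrus samples, the 3 diestrus samples or Estrus 5.

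No member was called between estrus and metestrus or between metestrus and diestrus by edgeR, DESeq2 or limma-voom. In the first of these, 7.56% of all genes were called, and 2 members had an unadjusted p under 0.05; in the second the background was 0.224%, with 1 member under 0.05. Between estrus and diestrus, 2 members were called, H2-K1 and B2m, both lower in diestrus, beside 13% of all genes called lower and 22.8% in either direction, so this share is near the background. Over the same interval the differences were 0.29 for H2-Aa, -0.20 for H2-Ab1, 0.34 for H2-Eb1 and -0.05 for Cd74, each with a 95% interval that includes 0. Whether class I and class II genes differ in this step was not tested. Both calls were lost without Estrus 4, Estrus 5, Diestrus 4 or Diestrus 5 and with library totals in place of TMM scaling, and 1 was left without Proestrus 1 or Diestrus 3.

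**Figure D3:**
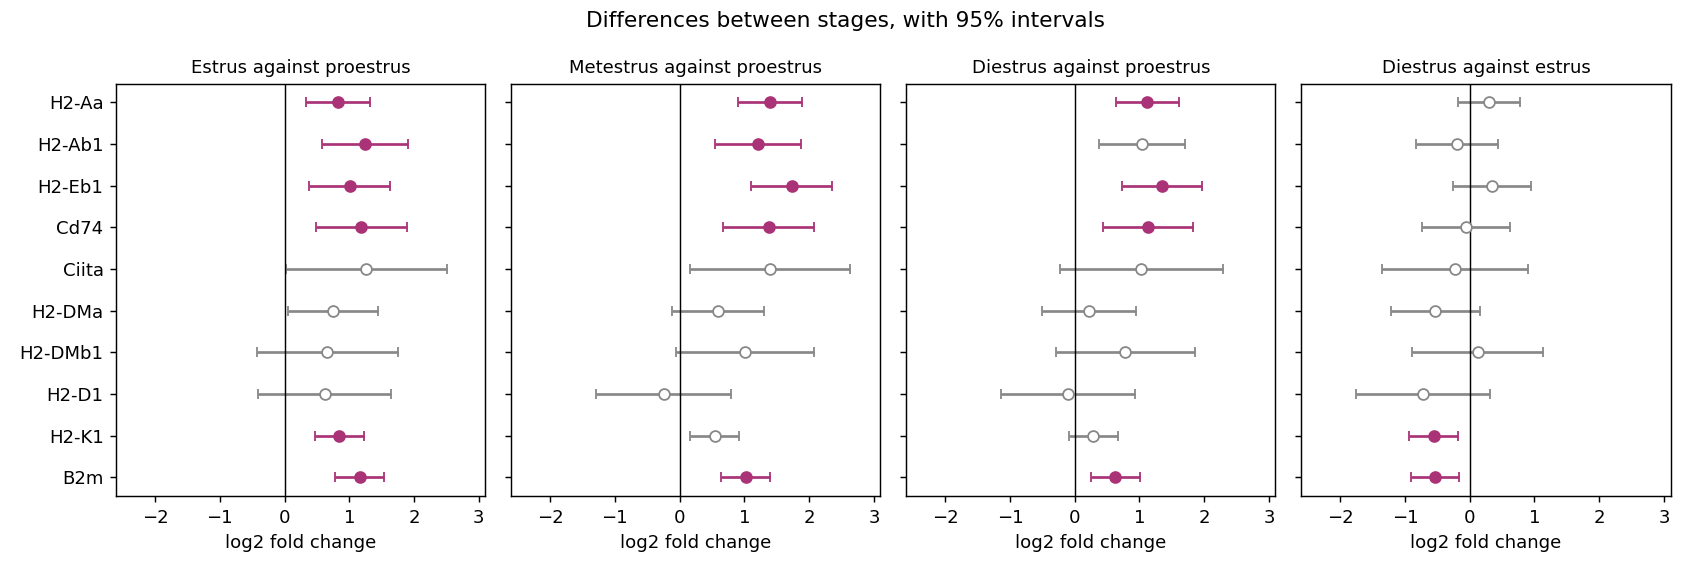
Log2 fold changes (horizontal axis) of the 10 members in 4 comparisons of stages, with 95% intervals; filled points passed the edgeR quasi-likelihood test at an adjusted p of 0.05 and open points did not. The first 3 panels share the proestrus samples. H2-Aa, H2-Eb1, Cd74 and B2m are filled against proestrus in all 3, and H2-K1 and B2m alone are filled, below 0, in the comparison of diestrus with estrus.

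Other genes of the class II pathway were read from a list of 19, of which 17 were found and 9 could be tested. Of these, 4 passed the F test (Ctsl, Lgmn, Ctss and Mr1), beside 23.2% of all genes, and all 4 had their highest mean in estrus. Ctss, a cathepsin that trims the invariant chain in antigen-presenting cells, was at 46.5 ± 7.57 CPM in proestrus, 140 ± 12.9 in estrus, 91.4 ± 38.5 in metestrus and, in diestrus, 98.4 ± 29.5 CPM (SD, n = 3 each, adjusted p = 0.0103). Ctsl, a cathepsin active in many cell types, had means of 403 ± 84.2 CPM (proestrus), 1845 ± 380 CPM (estrus) and 432 ± 164 CPM (metestrus). It was lowest in diestrus, at 261 ± 1.98 CPM (F test adjusted p = 1.7e-05). Lgmn, an endosomal protease, was at 262 ± 37.8 CPM in estrus (adjusted p = 0.00790). It was at 147 ± 25.6 CPM in proestrus and at 147 ± 12.9 CPM in diestrus. Mr1, a class I-like molecule placed in this list, was at 41.6 ± 3.67 CPM in estrus and 17.4 ± 4.75 CPM in proestrus (adjusted p = 0.0261). Its diestrus mean was 33.2 ± 8.76 CPM. The subunits of the RFX complex gave no call: Rfx5, Rfxap and Rfxank had F test adjusted p-values of 0.731, 0.974 and 0.467.

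H2-Ea-ps, the alpha chain gene of I-E that the annotation of the reference strain lists as a pseudogene, split the samples within stages. It was at 25.5, 2.14 and 0.504 CPM in proestrus, 19.0, 97.1 and 2.27 CPM in estrus, 42.7, 32.6 and 1.18 CPM in metestrus, and 43.6, 33.9 and 0 CPM in diestrus. Each stage held samples of both kinds, and the F test gave an adjusted p of 0.619. H2-Ea-ps shares none of its 31-base words with another gene. Of the 5 samples low in H2-Ea-ps, Proestrus 3, Metestrus 7 and Diestrus 5 held the 3 lowest H2-D1 values of the series, whereas Proestrus 2 and Estrus 5 did not stand out for H2-D1 in this way. Estrus 4 was the highest sample for both genes. H2-Eb1, whose product pairs with the I-E alpha chain, had the highest value of its stage in Proestrus 3, Estrus 5 and Metestrus 7, all of them low in H2-Ea-ps, and the lowest in Proestrus 2 and Diestrus 5, which were low too. These samples were singled out after their values were seen.

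From a list of 30 other class I genes, 22 were tested and 4 passed, which is 18.2% beside the 23.2% of all genes. H2-T23, which encodes the nonclassical molecule Qa-1 that natural killer cells read, was at 31.7, 25.7 and 21.2 CPM in proestrus, 93.3, 139 and 127 CPM in estrus, 61.3, 37.6 and 78.7 CPM in metestrus, and 34.2, 30.9 and 29.2 CPM in diestrus. Its estrus samples lay above all others, with a log2 fold change of 2.20 ± 0.25 over proestrus (adjusted p = 0.000229) and of -1.93 ± 0.24 from estrus to diestrus (adjusted p = 0.000136). Fcgrt, the heavy chain of the neonatal Fc receptor, which also pairs with B2m, was highest in estrus at 155 ± 16.9 CPM and lowest in proestrus at 71.9 ± 6.37 CPM (SD, n = 3 each, F test adjusted p = 0.000317). Tapbp, the peptide-loading factor tapasin, was at 210 ± 22.7 against 121 ± 10.1 CPM in the same stages (adjusted p = 0.00831), and H2-Q7 passed as well (adjusted p = 0.0314). H2-T23 and H2-Q7 share words with H2-D1 and H2-K1, and the peptide transporter genes Tap1 and Tap2 and the immunoproteasome gene Psmb8 did not pass (adjusted p of 0.534, 0.230 and 0.0608).

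Most genes of the interferon axis had their highest level in estrus, as H2-K1 and B2m did. Of 27 listed, 23 were tested and 19 passed the F test, beside 23.2% of all genes. This list, like the others, was chosen with earlier results of these data known, so the share is no independent test. Of the 19, 14 were highest in estrus and 11 lowest in diestrus. Irf7, a transcription factor of the type I interferon response, was at 17.0 ± 9.59, 80.3 ± 20.6, 35.9 ± 19.7 and 18.8 ± 8.14 CPM from proestrus to diestrus (SD, n = 3 each, adjusted p = 0.00548). Ifngr2, a receptor chain for interferon gamma, Gbp2, Gbp3 and Ifit1, which interferons induce, passed as well (adjusted p of 0.000133, 0.00130, 0.00368 and 0.00521). Ifng itself was at 1.03 CPM or less in every sample, below the level of 3 counts. Of the 23 tested, 13 were called higher in estrus than in proestrus and 1 lower. Over all genes tested, 9.67% were called higher there and 17.1% in either direction. From estrus to diestrus, 14 of the 23 were called lower and 1 higher. The shares over all genes were 13% called lower and 22.8% in either direction. The part of the interferon axis in the class I values was not tested.

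Markers of the cells that carry class II moved with it, in part. Of 14 macrophage markers, 13 were tested and 9 passed the F test. All marker counts here stand beside 23.2% of all genes tested. The summed level of the macrophage markers was 412 to 478 CPM in proestrus, 1002 to 1100 CPM in estrus, 580 to 1056 CPM in metestrus and 595 to 855 CPM in diestrus. Csf1r, the receptor that macrophages need to survive, was at 55.4 ± 11.9, 143 ± 19.6, 88.0 ± 13.2 and 77.2 ± 12.0 CPM in that order (SD, n = 3 each, adjusted p = 0.000907), and Adgre1, which encodes F4/80, had a proestrus mean of 9.60 ± 0.49 CPM against 32.1 ± 0.633 CPM for estrus (adjusted p = 0.0369). Of the 9 that passed, 7 had their lowest mean in proestrus, but Cd68 and Mrc1 had it in diestrus. Cd68 had stage means of 21.1, 50.7, 23.7 and 18.7 CPM from proestrus to diestrus (F test adjusted p = 0.0183). Mrc1 had means of 44.0, 90.7, 43.2 and 35.5 CPM (adjusted p = 0.00994). Of 4 general leukocyte markers, all tested, 2 passed, in different directions: Ptprc, which encodes CD45, was at 17.4 ± 2.04 CPM in proestrus and 48.9 ± 8.03 CPM in estrus (adjusted p = 0.00835), whereas Laptm5 had stage means of 54.9, 47.5, 40.2 and 31.1 CPM from proestrus to diestrus (adjusted p = 0.0389). The 10 dendritic cell markers summed to 26.6 to 36.4 CPM in proestrus and to 35.3 to 57.4 CPM in the other stages. Of these, 3 were tested and 1 passed, and none of the 3 had its lowest mean in proestrus. Clec10a, which passed, had stage means of 8.87, 22.8, 15.6 and 5.14 CPM from proestrus to diestrus (F test adjusted p = 0.0225). Flt3 and Zbtb46 had their lowest mean in estrus. Among the defining genes of dendritic cells, Itgax was at 5.62 CPM or less in every sample. Flt3, at 5.68 to 16.3 CPM, did not pass (adjusted p = 0.184). The 7 B cell markers summed to 36.9 to 67.5 CPM in proestrus, 95.4 to 353 CPM in estrus, 60.8 to 92.9 CPM in metestrus and 34.3 to 104 CPM in diestrus; 3 were tested and 2 passed. Jchain alone, which did not pass, held 262 of the 353 CPM in Estrus 5, and the 2 that passed had different orders: Ighm was highest in estrus (80.0 CPM against 27.7 CPM in proestrus, adjusted p = 0.00297), and Cd79b was highest in proestrus (7.93 CPM) and lowest in diestrus (1.39 CPM, adjusted p = 0.0154). The B cell gene Cd79a and the T cell gene Cd3e did not exceed 2.46 and 5.11 CPM. The 6 epithelial markers all passed the F test and were highest in the first stages, with sums of 1606 to 2137 CPM in proestrus, 1315 to 1678 CPM in estrus, 533 to 1078 CPM in metestrus and 478 to 693 CPM in diestrus. The part of any of these cell types in the class II values was not tested.

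Set against the macrophage markers, the class II sum was highest in metestrus and in most of diestrus. The summed level of H2-Aa, H2-Ab1, H2-Eb1 and Cd74 was 361, 330 and 313 CPM in proestrus, 420, 994 and 710 CPM in estrus, 816, 709 and 1216 CPM in metestrus, and 851, 734 and 678 CPM in diestrus. Divided by the macrophage sum of the same sample, this was 0.876, 0.690 and 0.681 in proestrus, 0.419, 0.903 and 0.703 in estrus, 1.03, 1.22 and 1.15 in metestrus, and 1.15, 1.23 and 0.793 in diestrus. All metestrus samples and 2 of 3 diestrus samples were above all proestrus and estrus samples, while Diestrus 5 lay among them. For B2m the same ratio had stage means of 0.690 ± 0.103, 0.670 ± 0.0514, 0.789 ± 0.0869 and 0.668 ± 0.108 (SD, n = 3 each, from proestrus to diestrus), which overlap. These ratios are descriptions of whole-tissue RNA and were given no test.

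**Figure D4:**
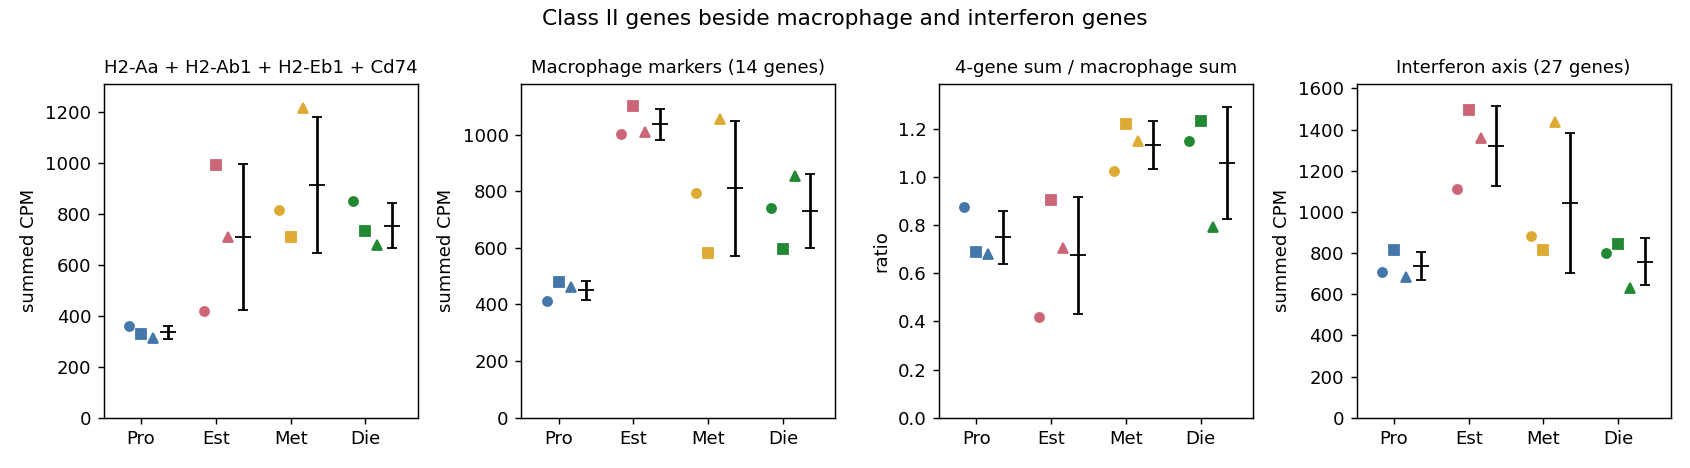
By stage and sample, from left to right: summed CPM of the 4 class II genes, summed CPM of 14 macrophage markers, the ratio of these sums, and summed CPM of 27 genes of the interferon axis; symbols as in the plot of the members. The macrophage and interferon sums have their highest mean in estrus, the class II sum has its highest mean in metestrus, and the ratio is above 1 in all 3 metestrus samples.

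Likeness between members was measured over the 12 samples. The Pearson correlation of log2 CPM among H2-Aa, H2-Ab1, H2-Eb1 and Cd74 ran from 0.69 (H2-Ab1 with H2-Eb1) to 0.93 (Cd74 with H2-Aa and with H2-Ab1), and it was 0.94 for H2-K1 with B2m, 0.54 for H2-D1 with H2-K1 and -0.16 for H2-D1 with H2-Eb1. With the mean profile of H2-Aa, H2-Ab1, H2-Eb1 and Cd74, H2-DMa had r = 0.61, H2-DMb1 0.63 and Ciita 0.67. The non-member genes most like that profile were Sumf1 (0.95), Susd6 (0.94), Igfbp3 (0.94), Tfpi (0.93), Wfikkn2 (0.92), Rasgrp3 (0.91), Ripor1 (0.90) and Id2 (0.90), none of them in the lists above. Igfbp3, an insulin-like growth factor binding protein, had stage means of 24.9, 112, 224 and 90.7 CPM from proestrus to diestrus. Among the genes most like the mean profile of H2-D1, H2-K1 and B2m were Tbc1d2b (0.94), Irf7 (0.91), Ccng2 (0.91), Sash1 (0.91), Chd2 (0.91), Pnpla8 (0.90) and Gatad2b (0.90), of which Irf7 is in the interferon list. The correlations share the 12 libraries and their 4 stages and describe likeness only.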

How the data were processed

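The authors deposited, for each of the 12 uterus libraries, a transcript table with estimated counts and TPM. The submitters' processing notes name FastQC, kallisto and DESeq2; the transcript set, the genome build and the use of strand are not given in the sources used here. Transcript IDs without versions were matched to GENCODE M21 (GRCm38): 97.7% of 119414 matched, and the 2774 others held 0.619% to 0.774% of a library's counts. The deposited estimated counts were summed per gene and rounded to whole numbers. The deposited TPM values were not used in any test.

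Genes passing filterByExpr (12052) were fitted with edgeR 4.0.16 (R 4.3.3; TMM, quasi-likelihood, all 4 stages in one fit), with an F test over stages and 6 pairwise contrasts, and p-values were adjusted by Benjamini-Hochberg over all genes; an adjusted p under 0.05 is a call. The comparisons share samples. DESeq2 1.42.0, limma-voom (limma 3.58.1), other scaling, other filters, fits to 2 stages and leaving out each library were alternatives. Within a stage, log2 CPM of libraries correlated at 0.939 to 0.957 in proestrus, estrus and diestrus and at 0.897 to 0.910 in metestrus.

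The members and gene lists were chosen with earlier results of these data known. Named were all members, up to 6 genes with the smallest F test p per pathway list, and the 8 genes most correlated with each class profile. Some cell type markers, genes of the lists that did not pass, and the samples singled out were named after their values were seen. Replicates are different samples of a stage; nothing in the labels ties them to a batch, so p-values measure the spread between these samples. Reads come from outbred animals and were assigned to reference transcripts, so transcripts of other H2 alleles may be counted less completely; this was not tested. Some genes that this rule names are not reported here. Promoter sequences come from RefSeq (GRCm38.p6; 7 of 10 members matched).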

Additional observations from a re-analysis of the deposited data

How the results depend on the processing

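The members' called differences between stages kept their direction under every alternative run; differences that were not called, and those of genes outside the 10 members, were not recomputed. The count of members passing the F test was 6 under each change of scaling, filter or tool, and 3 to 7 when single libraries were left out. Leaving out single libraries gave 2 to 6 calls between estrus and proestrus (6 reported), 2 to 7 between metestrus and proestrus (5 reported), 2 to 5 between proestrus and diestrus (4 reported), 0 to 2 between diestrus and estrus (2 reported), and 0 throughout for the other comparisons. Between diestrus and estrus, library totals without scaling gave 0 calls and no filter gave 1 (H2-K1). Without a filter, 1 member (H2-Eb1) was called between metestrus and estrus, where 0 were reported. The fit to 2 stages alone gave 2 calls (H2-Aa and Cd74) between metestrus and proestrus. The cause was not tested. H2-Aa, H2-Eb1 and B2m passed the F test under all 18 alternatives, as B2m and H2-K1 did between estrus and proestrus under all of theirs. H2-Ab1 lost its F test call without each proestrus library, Cd74 without each of these or Estrus 5, and H2-K1 without Proestrus 1, Proestrus 3, Estrus 4 or Estrus 5.

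Estrus and diestrus share the numbers 3, 4 and 5, but samples with the same number did not deviate together (correlations of -0.043, 0.013 and -0.017), so the numbers were not taken to pair the samples. With the replicate number as a block, 2 members were called between diestrus and estrus, as without it. H2-DMa, H2-DMb1 and Ciita rest on 4 to 40 counts a library; the part of depth in their missing calls was not tested.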
